A study of Mus musculus with 6 samples.

Results

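HES and HEY proteins are the basic helix-loop-helix repressors through which Notch signaling acts on gene expression, and NRARP is a small ankyrin repeat protein that Notch induces and that limits Notch signaling in return. The genes described here are Hes1, Hes2, Hes5, Hes6, Hey1 and Nrarp, taken by symbol from a table of 21397 mouse genes. The rule names 7 genes, of which 6 were found in the table, and Heyl was not analysed here. Small intestinal organoids, which are cultures of intestinal epithelium grown from crypts, were derived from Fpr2f/f mice, so that both groups carry the same floxed alleles of Fpr2, with no Cre among the labels of these samples. They were treated for 5 days with 1 μM MMK-1, a synthetic peptide agonist of the formyl peptide receptor FPR2, or with 0.1% DMSO as vehicle. The protocol text gives the dose as 1 μM, whereas the treatment label of the MMK-1 libraries reads 1 mM. The Control and MMK-1 groups had 3 libraries each, and the study's methods and legends describe ileal organoids with crypts of several mice pooled in each sample. The mice were on a C57BL/6J background and, per the study's methods, young adults matched for age between groups. No label says that the libraries of a group came from separate cultures, so p-values measure only the spread between these libraries, which may be technical.

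When a ligand of a neighboring cell binds a Notch receptor, the intracellular part of the receptor is cut free, enters the nucleus and joins the DNA-binding protein RBPJ on its target genes, among them Hes and Hey genes and Nrarp. HES1 represses Atoh1, the factor that sets intestinal progenitors on the secretory path to goblet, Paneth, enteroendocrine and tuft cells, and progenitors without ATOH1 become absorptive enterocytes. Most HES proteins recruit the corepressors of the Groucho/TLE family through the tetrapeptide WRPW at or near their carboxy terminus. HEY proteins carry the related tetrapeptide YRPW. NRARP, which has ankyrin repeats in place of a DNA-binding domain, lacks both.

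The ends of the coding sequences are shown because they hold the WRPW or YRPW tetrapeptide of the repressors, which Nrarp does not have. Each line gives the last 45 coding bases before the stop codon, 5′ to 3′, from GENCODE vM21 on GRCm38, and capitals mark the 4 codons of the tetrapeptide.
Hes1: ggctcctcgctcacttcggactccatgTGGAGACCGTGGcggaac
Hes2: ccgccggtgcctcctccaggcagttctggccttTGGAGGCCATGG
Hes5: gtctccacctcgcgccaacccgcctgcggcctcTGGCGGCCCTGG
Hes6: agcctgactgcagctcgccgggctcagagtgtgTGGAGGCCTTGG
Hey1: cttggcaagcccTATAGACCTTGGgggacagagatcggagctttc
In Hes2, Hes5 and Hes6 the 4 codons directly precede the stop codon. In Hes1 they are followed by 6 further coding bases, and in Hey1 by 21. The coding sequences, counted without the stop codon, ranged from 342 bases for Nrarp to 897 for Hey1.

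Promoters were available from RefSeq on GRCm38.p6 for 3 of the 6 genes found, Nrarp, Hes5 and Hes6, and are shown with the letters searched as sites of RBPJ, HES and HEY proteins. Each window holds the 250 bases before an annotated start, in the direction of the gene, and capitals mark the motifs found on either strand. The motifs searched were TGGGAA, the core of the RBPJ site, CACNAG, the N-box bound by HES proteins, and CACGTG and CACGCG, which are bound by HES and HEY proteins.
Nrarp, chr2:25180508-25180757, plus strand: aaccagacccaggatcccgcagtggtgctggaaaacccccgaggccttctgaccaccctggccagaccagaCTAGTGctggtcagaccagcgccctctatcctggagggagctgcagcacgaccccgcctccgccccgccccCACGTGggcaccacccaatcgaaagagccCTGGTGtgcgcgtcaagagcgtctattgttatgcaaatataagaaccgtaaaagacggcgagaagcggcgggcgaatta
Hes5, chr4:154960673-154960922, plus strand: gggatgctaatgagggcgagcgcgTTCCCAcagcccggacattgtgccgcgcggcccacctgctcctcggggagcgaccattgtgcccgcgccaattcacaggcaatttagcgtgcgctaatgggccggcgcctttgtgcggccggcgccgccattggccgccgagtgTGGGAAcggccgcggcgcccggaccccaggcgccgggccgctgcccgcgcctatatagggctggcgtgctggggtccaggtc
Hes6, chr1:91414039-91414288, minus strand, before the start of the gene span: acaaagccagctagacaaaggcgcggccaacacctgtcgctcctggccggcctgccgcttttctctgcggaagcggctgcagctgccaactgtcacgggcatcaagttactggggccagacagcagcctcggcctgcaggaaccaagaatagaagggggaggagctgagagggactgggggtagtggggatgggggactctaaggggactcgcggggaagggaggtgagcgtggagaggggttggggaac
Hes6, chr1:91413223-91413472, minus strand, before a second annotated start inside the gene span: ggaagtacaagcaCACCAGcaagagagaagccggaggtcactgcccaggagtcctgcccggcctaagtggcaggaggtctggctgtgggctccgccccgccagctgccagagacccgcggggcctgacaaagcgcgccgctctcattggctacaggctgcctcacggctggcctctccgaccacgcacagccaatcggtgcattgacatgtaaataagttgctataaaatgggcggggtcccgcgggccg
The Nrarp window held a CACGTG 108 to 103 bases before the start and an N-box on the opposite strand at 179 to 174 and again at 79 to 74 bases before it. The Hes5 window held the RBPJ core on both strands, at 82 to 77 and at 226 to 221 bases before the start. The Hes6 window before the start of the gene span held no match, and the window at the internal start held a single N-box, 237 to 232 bases before that start. None of these matches overlapped another. Of 32851 promoter windows of the same length, 21.6% held TGGGAA, 36.7% CACNAG, 6.02% CACGTG and 7.62% CACGCG, so that a match is a description of the letters and not evidence of binding.

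Of the genes found, 4 were expressed above 1 FPKM, fragments scaled by the length of the gene and the total of the library, in every library of both groups. Hes1, Hes6 and Nrarp were upregulated and Hes2 was downregulated in MMK-1-treated organoids, by 1.75-fold at most. The limma-trend test was run on log2(FPKM + 1) values of the 10551 genes that averaged at least 1 FPKM, and a gene was called when its adjusted p (Benjamini-Hochberg) did not exceed 0.05. On this scale, 3 of the 4 tested genes were higher and 1 was lower. These counts stand beside a background in which 48.5% of all genes tested were higher and 24.7% lower, 73.2% in all, so that a call by itself did not set the members apart. A fold threshold was also used, following the methods of the study. When a fold of 2 or more and an unadjusted p of no more than 0.05 were required, 0 of the 4 were called. By this rule 3.39% of genes were higher and 3.65% lower, 7.04% in all. Limma-voom, a test on fragment counts that also covered Hes5, called the same 4 genes in the same directions, where 59.6% of 15907 genes were called, 39.1% as higher and 20.5% as lower. FPKM is scaled per length, and levels are compared between genes on that scale. In bulk organoids, fewer cells of a type and less RNA per cell cannot be told apart.

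**Figure D1:**
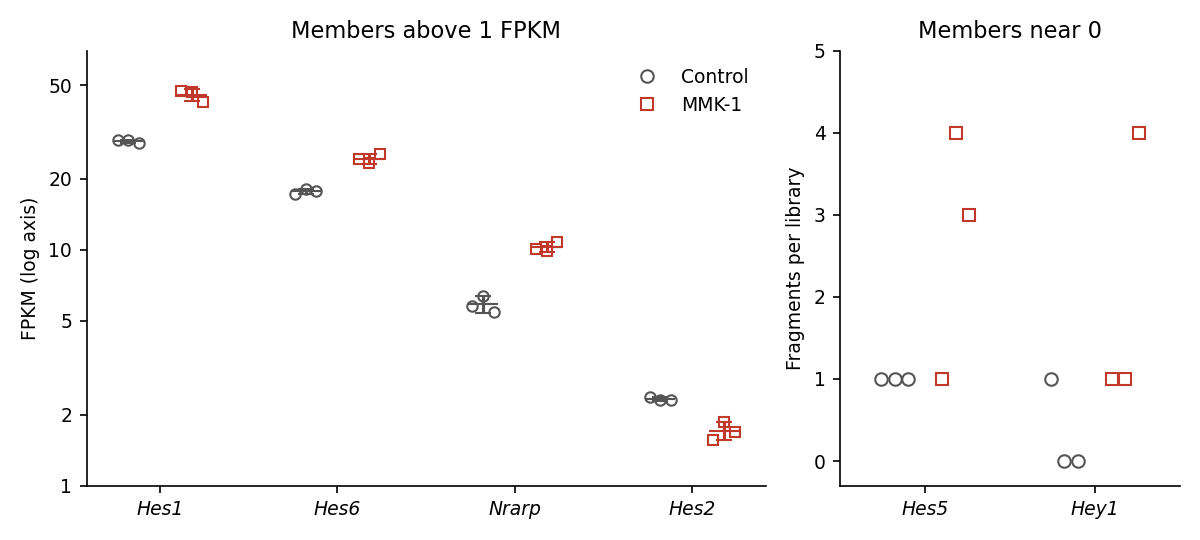
FPKM of Hes1, Hes6, Nrarp and Hes2 on a log axis, and fragments of Hes5 and Hey1 on a linear axis, in each of 3 Control (circles) and 3 MMK-1 libraries (squares), with the mean and SD as bars in the left panel. The groups are apart for the 4 genes on the left, with Hes2 alone lower with MMK-1, and Hes5 and Hey1 have 4 fragments or fewer in every library.

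Hes1 (NCBI gene 15205), the main Notch-induced repressor of the intestinal crypt, was the most abundant of the genes. It lies on chromosome 16 of GRCm38 from 30064384 to 30067796 on the plus strand and has 4 exons. Its FPKM was 29.14, 29.16 and 28.32 in Control and 47.42, 46.85 and 42.36 in MMK-1 libraries. The lowest MMK-1 library was well above the highest Control library, and among the MMK-1 libraries replicate 3 was lower than the other two. The means were 28.87 ± 0.476 (SD, n = 3) and 45.54 ± 2.77 (SD, n = 3), a ratio of 1.58, for which counting error alone gave a 95% exact interval of 1.52 to 1.63. The log2 fold change was 0.64 (SE 0.0506, adjusted p = 6.4e-06 in limma), and 12.1% of the genes tested had a larger log2 fold change.

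Nrarp (NCBI gene 67122), a Notch target whose product binds the complex of RBPJ and the Notch intracellular domain and restrains it, had the largest rise of the 4 genes tested with limma-trend. It lies on chromosome 2 from 25180758 to 25183339 on the plus strand as a gene of 1 exon. Its FPKM was 5.791, 6.407 and 5.439 in Control and 10.1, 9.928 and 10.82 in MMK-1 libraries. Every MMK-1 library was above every Control library, with replicate 3 the highest. The means were 5.879 ± 0.49 (SD, n = 3) and 10.28 ± 0.475 (SD, n = 3), a ratio of 1.75 with a counting interval of 1.65 to 1.86. On the same scale its log2 fold change was 0.72 (SE 0.0626, adjusted p = 1.1e-05 in limma), and 9.29% of the genes tested had a larger log2 fold change. GENCODE places an antisense gene, Gm38287, over 2559 bases of Nrarp, and whether the authors' counting used strand is not given in the sources used here, so fragments of the pair may not be separated.

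Hes6 (NCBI gene 55927) encodes a HES protein that is not a typical Notch target and that opposes HES1 in other tissues. It lies on chromosome 1 from 91411483 to 91414038 on the minus strand. Its FPKM was 17.24, 18.08 and 17.84 in Control and 24.22, 23.34 and 25.56 in MMK-1 libraries. The groups were apart, and the rise was the smallest of the 3 upregulated members. The means were 17.72 ± 0.436 (SD, n = 3) and 24.37 ± 1.12 (SD, n = 3), a ratio of 1.38 with a counting interval of 1.33 to 1.43. The log2 fold change was 0.44 (SE 0.047, adjusted p = 4.1e-05 in limma), and 22.8% of the genes tested had a larger log2 fold change.

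Hes2 (NCBI gene 15206), a HES repressor less studied than Hes1, was the member that fell. It lies on chromosome 4 from 152158867 to 152162469 on the plus strand. Its FPKM was 2.38, 2.314 and 2.306 in Control and 1.563, 1.863 and 1.696 in MMK-1 libraries. All MMK-1 libraries lay under all Control libraries, and the MMK-1 libraries spread more widely. The means were 2.333 ± 0.0406 (SD, n = 3) and 1.707 ± 0.15 (SD, n = 3), a ratio of 0.732 with a counting interval of 0.656 to 0.816. The log2 fold change on the log2(FPKM + 1) scale was -0.30 (SE 0.0606, adjusted p = 0.0018 in limma), a scale that understates changes at this level. Limma-voom on the fragments gave -0.45 (SE 0.113, adjusted p = 0.0043). Of the genes tested, 16.4% had a lower log2 fold change.

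The 4 genes kept the same order in both groups, Hes1 above Hes6, Hes6 above Nrarp and Nrarp above Hes2, and no library of one gene overlapped the range of its neighbor in that order within a group. The place of Hes1 above Hes6 in Control rests on the gene lengths behind FPKM, 1683 bases for Hes1 and 2771 for Hes6 as implied by the deposited values, since in fragments Hes1 had 5461 and Hes6 5518 over the Control libraries. In each gene the exact two-sided permutation p was 0.1, the smallest that 3 libraries against 3 allow. Control and MMK-1 libraries were fully apart in all 4, as they were in 76.8% of all genes tested. The summed FPKM of the 6 genes found was 54.8 ± 1.0 (SD, n = 3) in Control and 81.9 ± 1.4 (SD, n = 3) in MMK-1 libraries. Of this sum Hes1 held 52.7% in Control and 55.6% in MMK-1 libraries, Hes6 32.3% and 29.8%, and Nrarp 10.7% and 12.6%. Hes2 held 4.26% ± 0.11 (SD, n = 3) in Control and 2.08% ± 0.2 (SD, n = 3) with MMK-1. The shares of Hes1 and of Hes6 overlapped between the groups (exact permutation p = 0.2 for each), and those of Nrarp and Hes2 did not overlap (exact permutation p = 0.1 for each).

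Hes5 and Hey1, Notch targets best known from neural progenitors and from blood vessels and heart, were close to 0. Hes5 (NCBI gene 15208; chromosome 4, 154960923 to 154962371, plus strand) had 1 fragment in each Control library and 1, 4 and 3 fragments with MMK-1, so that the groups overlapped. The sums of 3 and 8 fragments gave a ratio of 2.76 after division by the library totals, with a 95% exact interval of 0.662 to 16.2. Limma-voom gave a log2 fold change of 0.99 (SE 0.781, adjusted p = 0.30), so a difference was not detectable at this depth. Hey1 (NCBI gene 15213; chromosome 3, 8663359 to 8667256, minus strand) had 1, 0 and 0 fragments in Control and 1, 1 and 4 in MMK-1 libraries. Its ratio was 6.21 with an interval of 0.753 to 286, and with fewer than 10 fragments in all it was not tested. A count of 0 in a library allows up to 3 fragments. The gene length implied by the deposited Hes5 values was 4385 bases against a GENCODE span of 1449, so the authors' gene model for Hes5 was longer, and another annotated gene, Gm20421, covers 756 bases of Hes5 on the opposite strand. For Hes6 the implied length, 2771 bases, also exceeded the span of 2556.

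Ratios between members within a library do not depend on how libraries are scaled. The FPKM of Hes2 was 0.0817, 0.0793 and 0.0814 of that of Hes1 in Control libraries and 0.033, 0.0398 and 0.04 in MMK-1 libraries. The Hes2 to Hes1 ratio was therefore lower in every MMK-1 library, with a difference of -1.11 on the log2 scale (SE 0.093). Nrarp was 2.52 ± 0.22 (SD, n = 3) times Hes2 in Control and 6.06 ± 0.63 (SD, n = 3) times in MMK-1 libraries, a log2 difference of 1.26 (SE 0.11). Nrarp relative to Hes6 was 0.336, 0.354 and 0.305 in Control and 0.417, 0.425 and 0.423 with MMK-1, a log2 difference of 0.35 (SE 0.064) with no overlap. By contrast, Nrarp to Hes1 was 0.199, 0.22 and 0.192 in Control and 0.213, 0.212 and 0.256 with MMK-1, and Hes6 to Hes1 was 0.591, 0.62 and 0.63 against 0.511, 0.498 and 0.603. Both of these ratios overlapped between the groups, with log2 differences of 0.15 (SE 0.11) and -0.20 (SE 0.091). Over the 8 ratios compared, those that did not overlap had the smallest possible exact permutation p of 0.1 and an adjusted p of 0.16, so none could pass the threshold in this design.

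**Figure D2:**
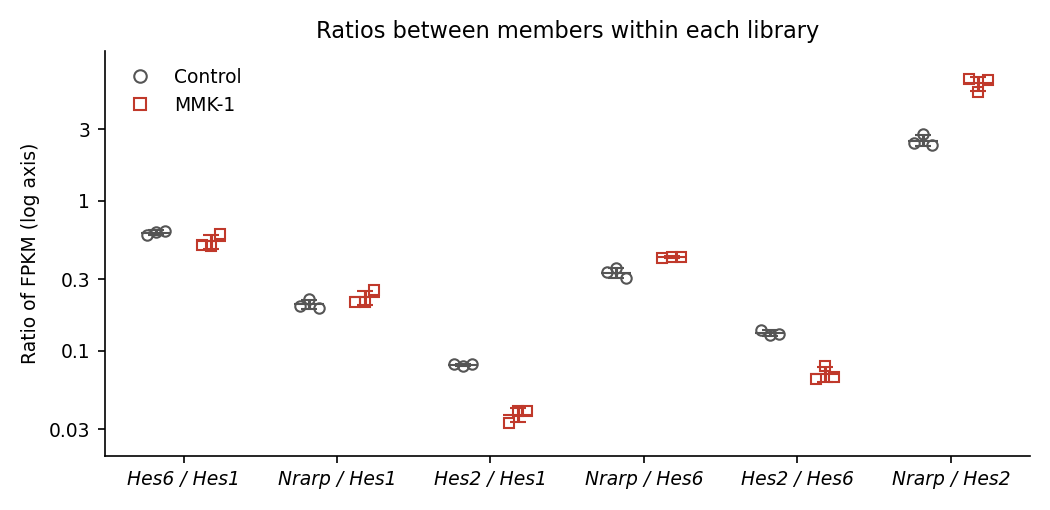
Ratio of the FPKM of a pair of members within each library, on a log axis, for 3 Control (circles) and 3 MMK-1 libraries (squares) with mean and SD. The ratios with Hes2 are the farthest apart between the groups, with Hes2 to Hes1 at 0.0808 in Control and 0.0376 in MMK-1 libraries on average, while Nrarp to Hes1 and Hes6 to Hes1 overlap.

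MMK-1 replicate 3 stood apart from the other MMK-1 libraries. Over all genes, the chi-square per degree of freedom between libraries, which is near 1 when only counting noise separates them, was 3.46 between MMK-1 replicates 1 and 2 but 34.4 and 29.4 between these and replicate 3. Between Control libraries it was 2.78 to 4.78. Among the members, Hes1 had a chi-square per degree of freedom of 0.494 over the Control libraries and 10.4 over the MMK-1 libraries, and Hes6 of 1.11 and 5.2. Nrarp went the other way, at 3.95 over the Control and 2.08 over the MMK-1 libraries, and Hes2 was at 0.0811 and 1.45. Without MMK-1 replicate 3 the log2 fold change was 0.69 for Hes1, 0.40 for Hes6, 0.68 for Nrarp and -0.30 for Hes2, and each kept its direction and call. The library totals implied by the deposited FPKM values were 35512738 to 37537462 fragments, of which about 99.7% lay on listed genes. Fragments outside genes may already be left out of these totals, so the share is not a rate of assignment to genes.

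Because more genes rose than fell, the members were also read under other scalings of the libraries. Over all genes tested, the median log2 fold change was 0.13, and it moved to 0.064 with upper-quartile scaling and to -0.0034 with median-ratio scaling. The share of called genes that were higher moved from 66.3% to 57.2% and 48.5%. In limma-voom this share moved from 65.6% to 51.8% with upper-quartile scaling, with 4780 genes higher and 4453 lower. Under median-ratio scaling the log2 fold change was 0.48 for Hes1, 0.29 for Hes6, 0.58 for Nrarp and -0.41 for Hes2, so that the rises became smaller, the fall became larger and no direction or call changed.

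**Figure D3:**
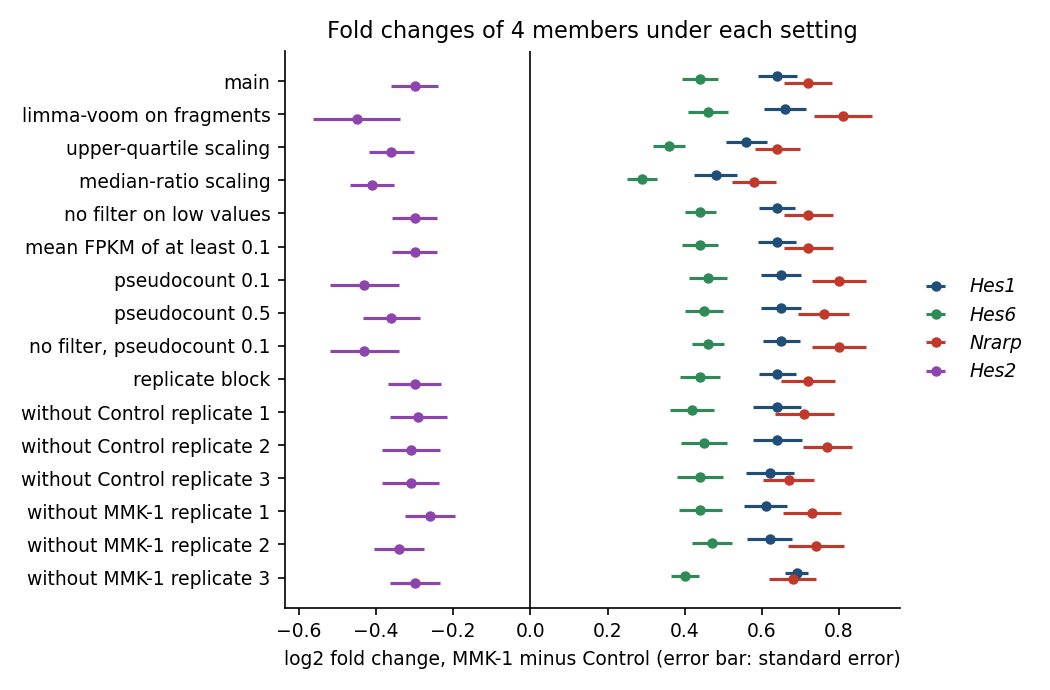
Log2 fold change, MMK-1 minus Control, of Hes1, Hes6, Nrarp and Hes2 with its standard error, in the main test and 15 alternatives. Hes1, Hes6 and Nrarp stay above 0 and Hes2 stays below 0 in each.

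The Notch receptors and ligands upstream of the members included rises of a receptor and a ligand. Of the 9 genes, 5 were tested, 3 were higher, 0 were lower and 2 did not pass, with a median log2 fold change of 0.22 against 0.13 over all genes tested. The share that was higher, 60.0%, stands beside 48.5% of all genes tested. Notch1, a receptor of crypt cells, was at 4.147, 4.082 and 3.998 FPKM in Control and 7.184, 6.911 and 7.377 in MMK-1 libraries, a log2 fold change of 0.68 (SE 0.0474, adjusted p = 2.8e-06 in limma). The Nrarp to Notch1 ratio was 1.44 ± 0.11 (SD, n = 3) in Control and 1.44 ± 0.031 (SD, n = 3) in MMK-1 libraries, with an overlap of the groups and an exact permutation p of 1.0. The Hes1 to Notch1 ratio was 7.03, 7.14 and 7.09 against 6.6, 6.78 and 5.74, a log2 difference of -0.16 (SE 0.075) without overlap. The ligand Jag2 rose by 1.26 and Jag1 by 0.22 in log2 fold change, although Jag1 lost its call with median-ratio scaling (adjusted p = 0.11 in limma). The delta-like ligands Dll1 and Dll4 each had a log2 fold change of 0.15 (adjusted p = 0.054 and 0.079 in limma). Dll1 passed without Control replicate 1 and Dll4 without MMK-1 replicate 2 (adjusted p = 0.023 for each in limma), and Dll1 also passed in limma-voom (adjusted p = 0.048). Notch2, Notch3, Notch4 and Dll3 had a mean under 1 FPKM in both groups and were outside this test. In limma-voom on fragments Notch2 (log2 fold change 0.74), Notch3 (1.70) and Dll3 (3.02) were higher, and Notch4 did not pass (adjusted p = 0.11). Notch3 had 37 fragments over the Control and 120 over the MMK-1 libraries. Dll3 had 6 and 52, so it passed the filter of 10 fragments in all only through its MMK-1 values. In that test 7 of the 9 genes were higher, Dll3 among them, beside 39.1% of all genes.

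Among 19 tested genes that process or modify Notch receptors and ligands, 10 were higher, 4 lower and 5 did not pass, with a median log2 fold change of 0.16. These were 52.6% and 21.1% of the list, close to the 48.5% and 24.7% of all genes tested. Lfng, a glycosyltransferase that modifies Notch receptors, rose from 2.104 to 6.093 FPKM (log2 fold change 1.19). Mib1, a ubiquitin ligase needed for ligand endocytosis, rose by 0.88, and Adam10, the protease of the first receptor cut, by 0.54. Psen2, which encodes a catalytic subunit of γ-secretase, fell by 0.34, and Numb, an inhibitor of Notch, fell by 0.20. Under median-ratio scaling 6 genes of this list were higher and 6 lower, while 3682 and 3916 of all 10551 genes were.

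Of 13 tested genes of the nuclear complex, 8 were higher, 1 was lower and 4 did not pass, with a median log2 fold change of 0.25 against 0.13 over all genes tested. These were 61.5% higher and 7.69% lower, beside 48.5% and 24.7% of all genes tested. Rbpj, the DNA-binding partner of Notch, rose from 0.9492 to 1.325 FPKM (log2 fold change 0.25, adjusted p = 0.0056 in limma). Its Control mean was under 1 FPKM, so it was among the genes tested through its MMK-1 values, and limma-voom, which uses no such filter, gave 0.48 (adjusted p = 9.3e-05). Rbpj was not a gene of few fragments, with 3082 over the Control libraries and an implied length of 28891 bases. The corepressors Ctbp2 and Ctbp1 rose by 0.52 and 0.34 and the acetyltransferase gene Kat2a by 0.46, whereas Cir1, a corepressor that binds RBPJ, fell by 0.55. The full-length members of the Groucho/TLE family are the partners of the WRPW tetrapeptide shown for the Hes genes. Of 4 tested genes of the family, 2 were higher, 1 was lower and 1 did not pass. These shares were near the 48.5% and 24.7% of all genes tested. Tle3 rose from 13.39 to 20.97 FPKM (log2 fold change 0.61) and Tle1 from 3.976 to 5.811 (0.45). Tle5, a short family member that lacks the domain bound by WRPW, was at 396 and 358.4 FPKM. Its call at -0.14 was lost without Control replicate 2 (adjusted p = 0.051 in limma), which left 0 lower genes in this list. Tle2 and Tle6 averaged under 1 FPKM in both groups and were higher in limma-voom, by 1.81 and 2.10.

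Other genes of the family were mostly near 0. Bhlhe40, a related repressor responsive to many stimuli, rose from 87.97 ± 3.11 (SD, n = 3) to 121.5 ± 5.6 (SD, n = 3) FPKM (log2 fold change 0.46) and was the only one of 5 in the table that the limma-trend test covered. Hes7, known from the segmentation clock of the embryo, had 5, 7 and 3 fragments in Control and 8, 13 and 7 in MMK-1 libraries, with overlapping groups (limma-voom log2 fold change 0.91, adjusted p = 0.17). Hes3 and Hey2 had at most 1 fragment in any library. Bhlhe41 had 30 fragments in Control and 17 in MMK-1 libraries (limma-voom adjusted p = 0.27). Helt was not analysed here.

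The next list held genes that HES1 is known to repress in other work. Of 5 tested in MMK-1-treated organoids, 4 were higher, 0 were lower and 1 did not pass, with a median log2 fold change of 0.69 against 0.13 over all genes tested. With 48.5% of all genes tested higher and 73.2% called in either direction, a call was the usual outcome for a gene. Cdkn1b, which encodes the cell cycle inhibitor p27, was at 19.09, 17.84 and 17.6 FPKM in Control and 53.84, 47.14 and 30.03 in MMK-1 libraries (log2 fold change 1.18). Among the MMK-1 libraries it was lowest in replicate 3, as was Hes1, although still above every Control library. Neurog3, the factor that starts enteroendocrine differentiation, rose from 2.046 to 4.182 FPKM (log2 fold change 0.77), and the cell cycle inhibitor gene Cdkn1c from 0.9287 to 2.121 (0.69). Cdkn1c, whose value is the median of the list, averaged under 1 FPKM in Control and was tested through its MMK-1 values, and limma-voom gave 1.17 for it. Atoh1 was at 2.077, 2.839 and 2.018 FPKM in Control and 4.169, 2.808 and 3.795 in MMK-1 libraries. Its groups overlapped, and its call (log2 fold change 0.47, adjusted p = 0.0094 in limma) was lost without a filter on low values (adjusted p = 0.051). Dll1, given above with the ligands, did not pass in limma-trend, while limma-voom called all 5 tested genes as higher, beside 39.1% of all genes.

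Of 9 tested factors of secretory progenitors, which share Atoh1, Neurog3 and Dll1 with the list of genes known to be repressed by HES1 and Dll1 and Dll4 with the ligands, 7 were higher and 2 did not pass, with a median log2 fold change of 0.56. The share that was higher was 77.8%, beside 48.5% of all genes tested. Sox4 rose by 1.58, Foxa2 by 1.01 and Neurod1 by 0.86. Foxa2 averaged 0.9989 FPKM in Control and 3.025 in MMK-1 libraries, so it too was tested through its MMK-1 values, and limma-voom gave 1.60 for it. The list of crypt genes, which are tied to Notch signaling directly or through the progenitors it maintains, held 6 genes. All 6 were higher, beside the same 48.5% of all genes tested, with a median of 1.35. Among them were Olfm4 (5.02), Lgr5 (2.86) and Ccnd1 (1.51), and each of these 3 changed more than any of the 4 tested members. The study counts these 3 among Wnt target genes, and the part of Notch signaling in their rise was not tested.

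**Figure D4:**
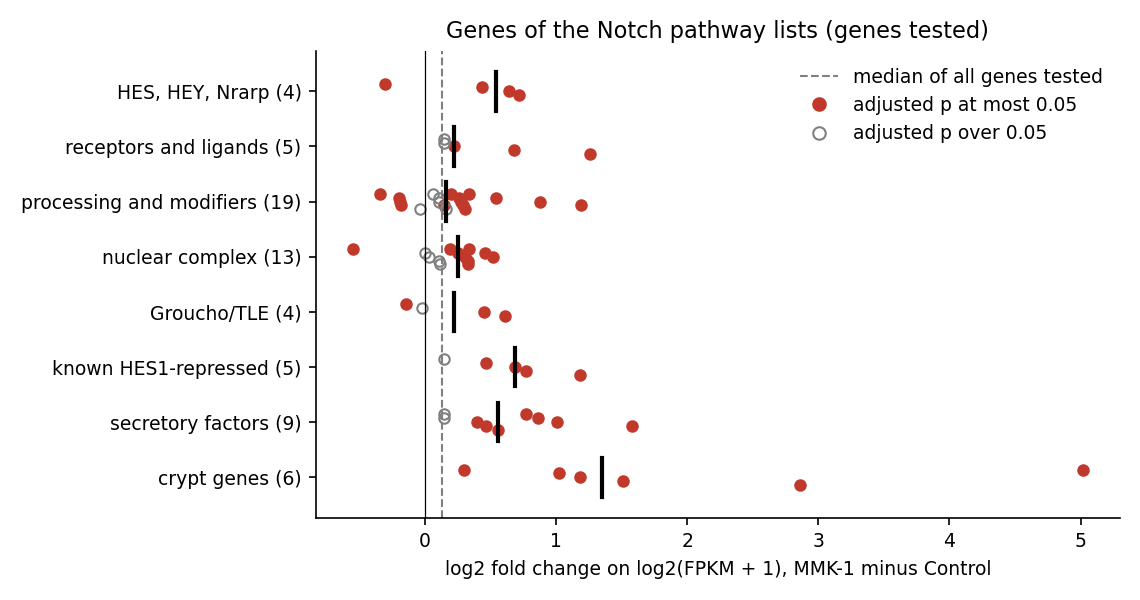
Log2 fold change, MMK-1 minus Control, of each tested gene of the member set and of the pathway lists, with the number tested in parentheses, a black bar at each list's median and a dashed line at the median of all genes, 0.13. Filled points are genes called at the adjusted p, and the crypt genes reach 5.02 while the 4 tested members reach 0.72.

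Markers of several epithelial cell types also differed between the groups, and the counts of called markers stand beside the 48.5% of all genes tested that were higher and the 24.7% that were lower. The summed FPKM of 5 stem cell markers, of which Lgr5, Olfm4 and Ascl2 are also in the list of crypt genes, was 44.3 to 44.8 in Control and 306 to 320 in MMK-1 libraries. All 5 were higher. That of 4 Paneth cell markers was 121 to 123 against 546 to 586, with all 4 higher. Of 8 enteroendocrine markers, 6 were tested, 4 were higher and 2 did not pass, with sums of 152 to 165 against 182 to 198, and the list shares Neurog3 and Neurod1 with the lists above. Of 7 enterocyte markers 5 were lower and 1 was higher, with sums of 11000 to 11100 against 9040 to 9750. Goblet markers summed to 1370 to 1440 in Control and 1400 to 1530 in MMK-1 libraries, with an overlap of the sums, 4 of 6 higher and 2 lower, so that calls went in both directions as they did over all genes. The 5 tuft markers were all under 1 FPKM on average and summed to 0.594 to 0.682 against 1.19 to 1.38. The part of these shifts in the changes of Hes1, Hes6, Nrarp and Hes2 was not tested.

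The epithelial label held, with 6 epithelial markers summing to 2150 to 2160 FPKM in Control and 1710 to 1860 in MMK-1 libraries, 3 of them higher and 2 lower, near the shares of all genes tested. Markers of other tissue compartments were low. Immune markers summed to 0.738 to 1.07 FPKM in Control and 0.611 to 0.724 in MMK-1 libraries, and neural and glial markers to 0.253 to 0.309 and 0.247 to 0.319. Endothelial markers summed to 0.0697 to 0.2 and 0.0676 to 0.232, with Kdr at 0 in all libraries. Fibroblast and mural markers summed to 5.76 to 6.22 in Control and 3.64 to 5.2 in MMK-1 libraries, and Vim alone averaged 4.828 and 3.942 (adjusted p = 0.049 in limma). Pdgfrb fell from 1.097 to 0.2647 FPKM (limma-voom log2 fold change -2.05, adjusted p = 8.7e-07). The immune marker Csf1r fell from 66 to 3 fragments (limma-voom -4.13, adjusted p = 0.00027). No other tested marker of the immune or the fibroblast and mural list passed in limma-voom.

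The genes whose pattern over the 6 libraries was closest to that of a member were found by the Euclidean distance of log2(FPKM + 1) values after subtraction of each gene's Control mean, among 10550 genes. For Hes1 they were Slc10a7, Uba3 and Auts2, at distances of 0.0414, 0.0525 and 0.0577. For Nrarp they were Melk, Traf4 and Dcps, at 0.06, 0.0621 and 0.0844. Hes6 had the closest neighbors, Gas2l1 at 0.021, Cers5 at 0.0263 and Kctd10 at 0.0281, and those of Hes2 were Ptpra at 0.0723, Secisbp2 at 0.0735 and Ppp2r5d at 0.0849. No member was among the nearest genes of another.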

How the data were processed

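RNA-seq libraries were prepared with the VAHTS Universal V10 kit and sequenced as 150-bp read pairs on an Illumina instrument. The authors deposited FPKM values. The submitters' processing notes name HISAT2, HTSeq, R 3.2.0, DESeq2 and mm10, and the annotation and strand setting are not given in the sources used here. Deposited FPKM values proved to be whole multiples of the worth of 1 fragment, so fragments were recovered for 100% of 21397 genes (tolerance 0.1 fragment). The main test was limma-trend (limma 3.58.1, R 4.3.3) on log2(FPKM + 1) without covariates, over genes with a mean of at least 1 FPKM. Genes under that filter were tested with limma-voom on fragments, over the 15907 genes with at least 10 fragments in all. P-values were adjusted by Benjamini-Hochberg over all genes tested. Exact permutation tests of single values were two-sided, and intervals of fragment counts are exact and cover counting error only. The genes named were every member, the 3 largest called changes in each direction of each list, all genes of the lists of receptors and ligands, other family members and genes known to be repressed by HES1, and the 3 nearest genes of each tested member, except that some genes of these lists are not reported here. Members and lists were chosen with earlier results of these data known. Coordinates and coding sequences came from GENCODE vM21 on GRCm38, and promoters from RefSeq. Other steps ran in Python 3.11.15 (scipy 1.17.1, numpy 2.4.6, matplotlib 3.10.9, pandas 2.3.3). The scripts were tested on simulated data. Alternatives covered scaling, filter, pseudocount, unit, replicate block, fold threshold and each replicate left out.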

Additional observations from a re-analysis of the deposited data

How the results depend on the processing

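Hes1, Hes6, Nrarp and Hes2 each kept their direction and call under all 15 alternatives. The log2 fold change ranged from 0.48 to 0.69 for Hes1, 0.29 to 0.47 for Hes6, 0.58 to 0.81 for Nrarp and -0.45 to -0.26 for Hes2, and with each replicate left out from 0.61 to 0.69, 0.40 to 0.47, 0.67 to 0.77 and -0.34 to -0.26. The number of members at the fold threshold was 0 at a fold of 2 and 2, Hes1 and Nrarp, at a fold of 1.5. Hes5 did not pass in limma-voom, with log2 fold changes of 0.66 to 1.44 over 8 alternatives and adjusted p of 0.14 to 0.55, nor in limma-trend without a filter and with a pseudocount of 0.1, where it was 0.13 (adjusted p = 0.19). Over all genes, 3916 were lower with median-ratio scaling against 2606 in the main test. Of the receptors and ligands 7 were higher with limma-voom and 6 without a filter, against 3, and of the Groucho/TLE genes 4 with either, against 2. Median-ratio scaling gave 2 lower genes in the Groucho/TLE list and in the nuclear complex, against 1 each. The deviations of same-numbered Control and MMK-1 libraries correlated at 0.025, -0.04 and 0.028 over genes. With 3 libraries per group, such values cannot tell whether the replicate numbers pair the libraries. With the replicate block the fold changes were the same and all 4 calls were kept, with adjusted p of 2.4e-05 for Hes1, 0.00021 for Hes6, 8.8e-05 for Nrarp and 0.0053 for Hes2 in limma. Depth limits Hes5, with 3 Control and 8 MMK-1 fragments, and Hey1, with 1 and 6.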
